A study of Mus musculus with 6 samples.

Results

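Hypothalamic neuropeptide genes were examined in forebrain RNA of adult male C57BL/6J mice. The 8 genes Avp, Oxt, Hcrt, Pmch, Agrp, Trh, Gal and Cartpt were taken by their symbols from the 23282 entries of the count tables, and each symbol occurred once. Libraries labelled WAS came from 3 mice that stood for 1 h on a small platform surrounded by water (water avoidance stress), and libraries labelled control came from 3 mice kept for the same time on such a platform in a dry container. Each library came from 1 mouse, from forebrain that had been freed of olfactory bulbs and cerebellum and split into hemispheres, so that the hypothalamus should be part of the tissue but only a small part of it. The comparison asks whether the brain transcriptome differed between acutely stressed mice and their controls.

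The 8 genes encode precursors of peptides made by small groups of hypothalamic neurons, which cut them into active peptides and release them from dense-core granules. Avp (vasopressin) and Oxt (oxytocin) are made by large neurons of the paraventricular and supraoptic nuclei, which release them into the blood at the posterior pituitary. Trh (thyrotropin-releasing hormone) is made in the paraventricular nucleus and drives the thyroid axis. Hcrt (hypocretin, also called orexin) and Pmch (melanin-concentrating hormone) mark neighbouring neurons of the lateral hypothalamus that act on arousal, sleep and feeding. Agrp is the feeding peptide of arcuate neurons and blocks melanocortin receptors, Cartpt encodes the CART peptides, and Gal encodes galanin. Cartpt, Trh and Gal are also made in neurons outside the hypothalamus, whereas Hcrt, Pmch and Agrp are close to restricted to it in the brain.

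Oxt lies at chr2:130576173-130577054 on the plus strand and Avp at chr2:130580620-130582554 on the minus strand of GRCm38 (GENCODE M21), 3565 bases apart and pointing at each other. They are related by duplication, and the transcripts share an identical run of 127 bases in the coding sequence, which encodes a part of the neurophysin carrier common to both precursors. The run is shown because the authors counted reads with several alignments, so that a read of 75 bases from it can fit either gene. In Avp it spans chr2:130581133-130582411 and in Oxt chr2:130576328-130576715, across the intron between exons 1 and 2, with the 125 bases of exon 2 in capitals.
Avp and Oxt: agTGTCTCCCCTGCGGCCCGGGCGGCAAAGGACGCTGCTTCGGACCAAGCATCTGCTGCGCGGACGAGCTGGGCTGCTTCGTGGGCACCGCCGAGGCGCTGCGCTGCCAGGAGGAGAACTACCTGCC
The run ends 307 bases before the end of the Avp transcript and 255 bases before the end of the Oxt transcript, so it lies within the last 500 bases of each, and the counts of these genes are uncertain to that extent. WAS replicate 3 held 33 counts of Oxt with 0 of Avp and control replicate 3 held 445 counts of Oxt with 17 of Avp, so in these libraries at most a small part of the Oxt reads was also entered under Avp. The last 500 bases of the other 6 genes shared no stretch of 50 bases with another gene. Agrp (chr8:105566698-105637393, minus strand) has an annotated span that overlaps 7 other genes, and Pmch (chr10:88091072-88092375, plus strand) overlaps Parpbp on the other strand. Hcrt lies at chr11:100761069-100762931, Trh at chr6:92242061-92244650, Gal at chr19:3409915-3414544 and Cartpt at chr13:99898489-99901091, all on the minus strand and without an overlapping gene.

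RefSeq promoter sequences (GRCm38.p6) were found for 7 of the 8 genes, all but Agrp. The 250 bases before the RefSeq start are shown for Oxt and Avp, the neighbouring genes that were both highest in the same libraries, and for Cartpt, which was counted in every library. For Cartpt this window lies inside the GENCODE span given above, so it is not upstream of the whole annotated gene. Capitals mark TGACC, a nuclear receptor half-site, or TGACG, a half-site of the cAMP response element, on either strand.
Oxt, chr2:130575919-130576168, plus strand: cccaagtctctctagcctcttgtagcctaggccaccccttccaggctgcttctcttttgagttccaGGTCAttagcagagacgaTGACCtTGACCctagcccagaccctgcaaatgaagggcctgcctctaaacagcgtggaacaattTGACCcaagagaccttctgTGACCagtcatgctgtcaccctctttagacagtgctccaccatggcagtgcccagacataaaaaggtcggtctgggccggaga
Avp, chr2:130582589-130582838, minus strand: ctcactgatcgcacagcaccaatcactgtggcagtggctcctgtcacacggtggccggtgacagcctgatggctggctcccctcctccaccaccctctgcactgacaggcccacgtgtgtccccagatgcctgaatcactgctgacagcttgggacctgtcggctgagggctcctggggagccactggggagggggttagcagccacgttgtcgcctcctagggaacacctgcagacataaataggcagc
Cartpt, chr13:99900684-99900933, minus strand: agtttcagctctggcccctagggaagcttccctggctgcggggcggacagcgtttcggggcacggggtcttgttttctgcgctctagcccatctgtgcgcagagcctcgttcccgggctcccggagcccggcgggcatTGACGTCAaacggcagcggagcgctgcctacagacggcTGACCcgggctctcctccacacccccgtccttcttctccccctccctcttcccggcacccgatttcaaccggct
TGACC occurred 5 times before Oxt, 0 times before Avp and 1 time before Cartpt. In all 32851 promoter windows of this length, 35.2% held TGACC and 17.8% held TGACG on either strand. The full element TGACGTCA, which contains TGACG on each strand, occurred before Cartpt and in 1.55% of all windows. These matches describe the letters and were not tested for binding.

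The total count was between 9248520 and 10502029 per library, so that 0 counts of a gene allowed up to 0.324 counts per 1000000 reads counted (CPM) in the smallest library, taking 3 counts as the limit for a count of 0. The exact 95% intervals given for single libraries are a different measure and reach 0.399 CPM for a count of 0 in that library. Both cover counting error only. Inside the tables, the count columns are headed WC for the samples labelled WAS and WS for the samples labelled control, headings that the sources used here do not define. Groups follow the labels, and exchanged labels would invert every direction given here. WAS replicates 1 and 3 stood apart from the other 4 libraries. Summed striatal markers (5 genes) were at 73.0 and 189.9 CPM in these 2 libraries and between 495 and 1011 CPM in the other 4, whereas summed thalamic markers (4 genes) were at 429 and 342 CPM against 59.5 to 88.9 CPM. On summed choroid plexus markers WAS replicate 1 and control replicate 2 stood apart instead, at 40.3 and 15.2 CPM against 908 to 1225 CPM in the other 4. Control replicate 2 is also the library with 0 counts of Trh and Gal and 3 of Oxt, whereas WAS replicate 1 had 13 of Trh, 4 of Gal and 105 of Oxt. Any part of the choroid plexus difference in these values was not tested.

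The tissue check found few reads of the hypothalamus. Of 9 transcription factor genes listed as hypothalamic markers, 1 averaged at least 20 counts per library. This was Six3, which is also expressed in the striatum. Otp, a factor needed to make Avp, Oxt and Trh neurons, was listed at 0 in every library, and Sim1, a factor of the same neurons, had 4, 8 and 1 counts in the 3 WAS libraries against 0, 0 and 3 in the 3 control libraries. The 8 markers other than Six3 summed to 7, 26 and 5 counts in the WAS group and to 9, 6 and 30 in the control group, with WAS replicate 2 and control replicate 3 the highest. A 0 is not proof of absence here, because the dopamine receptor gene Drd2 was also at 0 in 5 of the 6 libraries, with 1 count in control replicate 2, while the striatal gene Adora2a had between 5 and 465 counts. In these bulk samples, fewer cells of a type and less RNA per cell cannot be told apart.

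Oxt was the gene with the widest spread. Its counts were 105, 130 and 33 for WAS replicates 1, 2 and 3, against 6, 3 and 445 for control replicates 1, 2 and 3, the order used for all values that follow. Scaled to the library total, this was 10.4, 14.1 and 3.30 CPM against 0.571, 0.289 and 44.6 CPM. Both the highest and the lowest values lay in the control group, so the groups overlapped completely. Control replicate 3 was at 154 times the level of control replicate 2, with a 95% counting interval from 52.5 to 751, and its own interval of 40.6 to 48.9 CPM was clear of that of every other library. The group means were 9.26 ± 5.47 CPM (SD, n = 3) in the WAS group and 15.2 ± 25.5 CPM (SD, n = 3) in the control group.

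Avp, the neighbour of Oxt, had 6, 26 and 0 counts in the WAS group and 2, 4 and 17 in the control group. This corresponds to 1.14 ± 1.48 CPM (SD, n = 3) against 0.760 ± 0.823 CPM (SD, n = 3). WAS replicate 2 and control replicate 3 were the highest libraries for Avp as they were for Oxt, although in the other order. Reads of the run shared with Oxt can add to the counts of Avp, and their part in this likeness was not tested. Gal, which some Avp neurons also make, gave 4, 26 and 11 counts against 3, 0 and 22, that is 1.44 ± 1.24 CPM (SD, n = 3) against 0.830 ± 1.20 CPM (SD, n = 3). Here too WAS replicate 2 and control replicate 3 were the highest. Over all genes tested, 5.74% had this pair of libraries at the top, and 3 of the 6 neuropeptide genes tested did. Trh, Pmch and Cartpt were instead highest in WAS replicate 3 and control replicate 3. Control replicate 3 was thus among the 2 highest libraries for all 6 genes, and for 25.2% of all genes tested. These patterns were noticed in the data.

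Trh had 13, 12 and 25 counts in the WAS group and 6, 0 and 22 in the control group, or 1.70 ± 0.698 CPM (SD, n = 3) against 0.925 ± 1.14 CPM (SD, n = 3). Its lowest values were in control replicates 1 and 2, and control replicate 3 lay between WAS replicates 2 and 3. The group means of Trh thus differed by less than the SD within the control group.

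Hcrt and Pmch, the lateral hypothalamic pair, were close to the limit of the libraries. Hcrt had 1, 0 and 4 counts against 7, 0 and 5, with a library at 0 in each group. Pmch had 7, 5 and 18 counts in the WAS group and 7, 8 and 12 in the control group, or 1.01 ± 0.688 CPM (SD, n = 3) against 0.880 ± 0.284 CPM (SD, n = 3). Pmch was counted in all 6 libraries and was highest in WAS replicate 3. Agrp had 0, 0 and 1 counts in the WAS group and 1, 6 and 1 in the control group, a total of 9 counts over the 6 libraries. At this depth no difference between the groups was detectable for Hcrt or Agrp.

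Cartpt was well counted, with 66, 137 and 230 counts in the WAS group and 93, 135 and 161 in the control group. The levels were 6.56, 14.8 and 23.0 CPM against 8.86, 13.0 and 16.1 CPM, and the group means were 14.8 ± 8.24 CPM (SD, n = 3) and 12.7 ± 3.65 CPM (SD, n = 3). The WAS group held the lowest and the highest value, 3.51 times apart (95% counting interval 2.66 to 4.69), and all 3 control libraries lay between them.

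**Figure D1:**
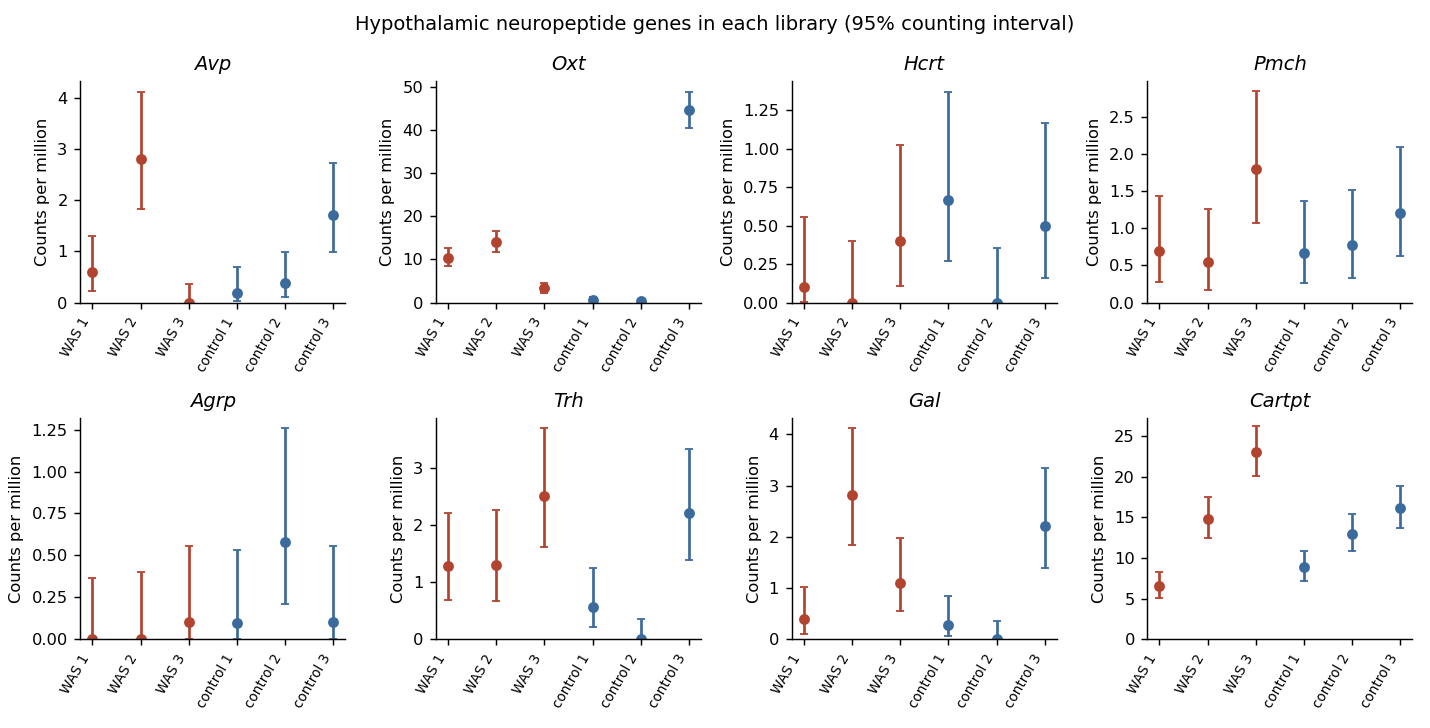
CPM, relative to the library total, for the 8 neuropeptide genes, each point a library (red, labelled WAS; blue, labelled control) with its exact 95% binomial counting interval. Oxt ranged from 0.289 to 44.6 CPM within the control group, and the groups overlapped for each gene.

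None of the neuropeptide genes passed the test between the groups. A total of 6 of the 8 genes passed the filter on low counts, Hcrt and Agrp being too low. By edgeR's quasi-likelihood test over 15239 genes, 0 of the 6 met the study's fold change of 1.5 at an unadjusted p under 0.05, where 2.49% of all genes tested did (1.82% higher and 0.676% lower in the WAS group). At an unadjusted p under 0.05 the 6 genes held 0 and all genes 7.24%, and 0 genes of either set passed an adjusted p of 0.05. The groups overlapped for each of the 6, while 12.2% of all genes tested had groups that did not overlap. The log2 fold change, WAS relative to control, was above 0 for 5 genes and below 0 for 1, with a median of 0.35 against 0.00088 for all genes. Trh had 0.84 (standard error 0.82), Gal 0.74 (0.99), Avp 0.52 (1.05), Cartpt 0.19 (0.37), Pmch 0.17 (0.59) and Oxt -0.76 (1.11). The Benjamini-Hochberg adjusted p lay between 0.895 for Trh and 0.972 for Pmch. The standard error exceeded the size of the estimate for 5 of the 6, and for Trh it was close to it. With no filter on low counts the unadjusted p was 0.350 for Hcrt and 0.110 for Agrp.

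Single libraries decided the direction of several of these values. Without control replicate 3 the log2 fold change of Oxt turned from -0.76 to 4.36 with an unadjusted p of 0.000177, and its adjusted p was 0.303 by edgeR's test, the lowest of a range up to 1 over all alternatives. Leaving out the same library raised Gal to 3.18 and Trh to 2.49, so that 3 of the 6 genes met the study's criteria, each higher in the WAS group, against 2.97% of all genes in that fit (2.22% in that direction). Without WAS replicate 2 the estimate for Avp turned to -1.34 and that for Gal to -0.17. Without WAS replicate 3 the values for Pmch and Cartpt turned to -0.53 and -0.29, and without control replicate 1 to -0.00054 and -0.024. Trh alone of the 6 kept its sign whichever library was left out, between 0.26 and 2.49. Without WAS replicates 1 and 3 together, a fit that assumes that the lone WAS library varies like the controls, 1 gene met the criteria (Avp, 1.84), against 2.3% of all genes.

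**Figure D2:**
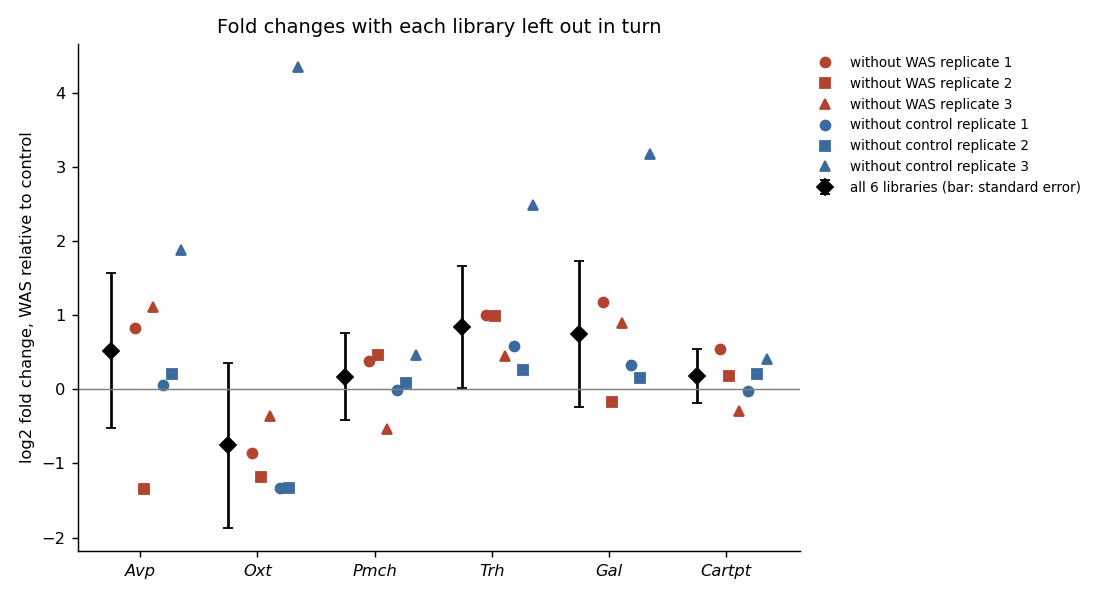
The log2 fold change (WAS relative to control) of the 6 neuropeptide genes tested, with all 6 libraries (black, bar for the standard error) and after removing a single library (red, a library labelled WAS left out; blue, one labelled control). Leaving out control replicate 3 moved Oxt to 4.36, Gal to 3.18 and Trh to 2.49.

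The spread within groups was wide for most of these genes. The biological coefficient of variation (BCV) describes the spread between libraries of a group beyond counting error. The values are edgeR's estimates per gene, which are drawn toward a trend with the mean count. The BCV had a median of 71.6% over the 6 genes tested and of 14.0% over all genes tested. It was 98.3% for Oxt, 83.9% for Avp, 79.8% for Gal, 63.5% for Trh, 38.2% for Pmch and 30.8% for Cartpt. Genes with few counts have a higher BCV, and the trend fitted at the same mean count was 16.3% for Oxt, 36.8% for Avp, 35.3% for Gal, 34.1% for Trh, 36.6% for Pmch and 15.6% for Cartpt. Oxt thus lay far above the trend and Pmch near it, a contrast given without a test. The estimate itself brings values nearer to the trend. The summed hypothalamic markers, like Oxt, Avp and Gal, were highest in WAS replicate 2 and control replicate 3, at 2.81 and 3.01 CPM against 0.501 to 0.857 CPM in the other 4 libraries. Trh, Pmch and Cartpt were highest in WAS replicate 3, which had the lowest marker sum (0.501 CPM). The part of these markers in the spread was not tested.

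**Figure D3:**
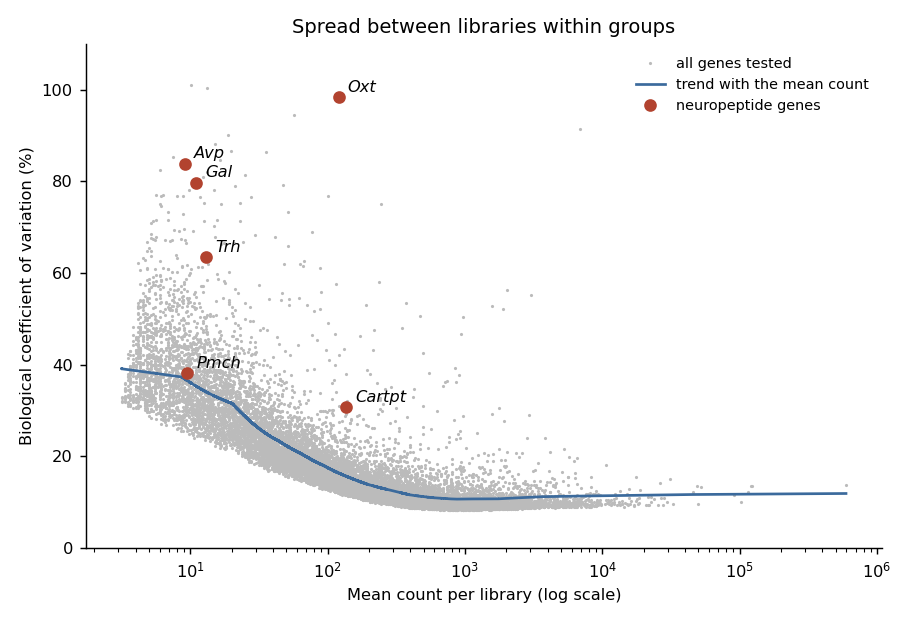
Biological coefficient of variation within groups (percent) against the mean count per library (log scale) for the 15239 genes tested (grey), with the fitted trend (blue line) and the 6 neuropeptide genes tested (red). Oxt lies at 98.3% where the trend is 16.3%, and Pmch at 38.2% where the trend is 36.6%.

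Ratios within a library were compared for 3 pairs of peptides made in the same area. The log2 ratio of Avp to Oxt counts, with 0.5 added to each, was -4.02, -2.30 and -6.07 in the WAS group and -1.38, 0.36 and -4.67 in the control group. Avp was therefore below Oxt in counts in 5 of the 6 libraries, and the groups overlapped (exact permutation test, two-sided, p = 0.3, and 0.45 adjusted over the 3 pairs). The ratio of Hcrt to Pmch was -2.61 ± 0.752 (SD, n = 3) against -1.76 ± 2.10 (SD, n = 3) on the log2 scale (exact permutation p = 0.5). The ratio of Agrp to Pomc, 2 arcuate genes with opposed actions on melanocortin receptors, was -5.29, -6.11 and -3.27 against -3.17, -0.94 and -2.81. Its groups did not overlap, and the exact permutation p of 0.1 (0.3 adjusted over the 3 pairs) is the smallest that 3 libraries against 3 can give. It rests on the 9 counts of Agrp. Any part of pituitary RNA in the Pomc counts was not tested, and summed pituitary markers are given with Pomc below.

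Of 15 receptor genes listed, 7 were tested, 2 met the study's criteria and both were higher in the WAS group, where 1.82% of all genes tested did. Trhr, a receptor for thyrotropin-releasing hormone, had 40, 24 and 59 counts against 25, 21 and 21, which is 0.90 ± 0.35 (SE) on the log2 scale with an edgeR adjusted p of 0.632, and of 0.0973 to 0.9997 over the alternatives. Mc4r, the melanocortin receptor that Agrp blocks, had 98, 51 and 52 counts against 44, 34 and 39, which is 0.81 ± 0.29 (SE) with an edgeR adjusted p of 0.615, and of 0.145 to 0.9997 over the alternatives. The groups did not overlap for either gene after scaling. Mc4r lost the criteria without WAS replicate 1 (0.46) or control replicate 2 (0.72), and Trhr lost them on removal of control replicate 2 (0.86), control replicate 3 (0.89) or WAS replicate 3 (0.56). With WAS replicates 1 and 3 both left out, Mc4r was at 0.50 and Trhr at 0.22, and neither met the criteria. Summed thalamic markers were high in these WAS libraries (429 and 342 CPM), as were summed midbrain markers (30.6 and 62.4 CPM against 12.6 to 15.4 CPM in the other 4), and their part in the 2 receptor values was not tested.

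The remaining receptors gave no call. Hcrtr1, a hypocretin receptor, had 18, 11 and 8 counts against 6, 4 and 7, and its groups did not overlap, at 1.14 ± 0.55 (SE) on the log2 scale with an unadjusted p of 0.0612 by edgeR's test. Hcrtr2, the second hypocretin receptor, was at -0.49 (0.47). Oxtr, the oxytocin receptor, was at 4.94 ± 0.630 CPM (SD, n = 3) against 4.87 ± 0.754 CPM (SD, n = 3) in spite of the range of Oxt, with a log2 fold change of -0.016 (0.25). Mchr1, the receptor of melanin-concentrating hormone, was at 14.1 ± 3.19 CPM (SD, n = 3) against 14.5 ± 3.62 CPM (SD, n = 3), and Avpr1a, a vasopressin receptor, had between 1 and 11 counts. The other 8 receptor genes were under the filter, among them Galr1 with 26 counts in all and Galr2 and Galr3 with 1 each.

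**Figure D4:**
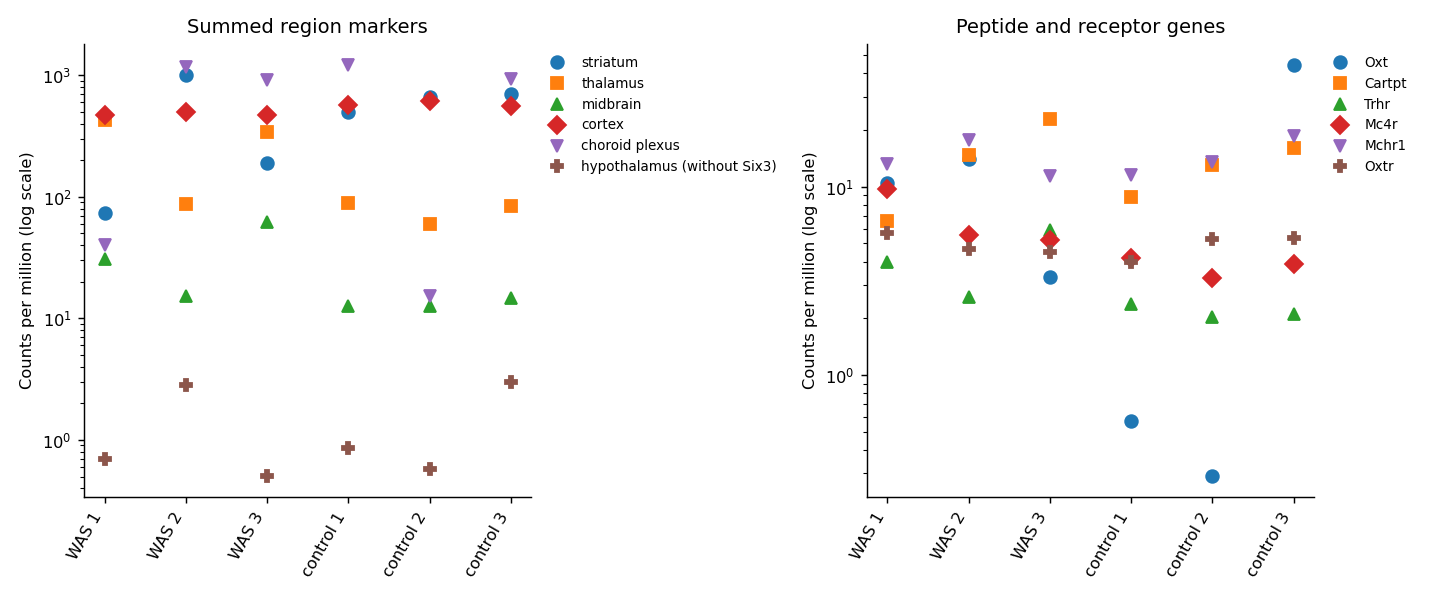
Left, summed CPM of region markers by library on a log scale (striatum 5 genes, thalamus, midbrain, cortex and choroid plexus 4 genes each, hypothalamus 8 genes without Six3). Right, CPM of 2 peptide and 4 receptor genes on a log scale. The hypothalamic sum was between 0.501 and 3.01 CPM, and WAS replicates 1 and 3 had the highest thalamic and midbrain sums.

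Other genes of hypothalamic signalling were read from lists. Of 30 other genes (29 peptide genes and Th, the enzyme that starts dopamine synthesis), 21 were tested and 1, Th, met the criteria, against 2.49% of all genes tested. Th had 75, 43 and 146 counts against 13, 19 and 34 or 2.01 ± 0.46 (SE) on the log2 scale with an edgeR adjusted p of 0.477, and of 0.00374 without WAS replicate 2 to 0.9997 over the alternatives. Th passed an adjusted p of 0.05 with DESeq2 (0.0139) and with edgeR's exact test (0.0223) as well. Without WAS replicates 1 and 3 together it was at 1.07, no longer past the criteria. Th is itself 1 of the 4 midbrain markers summed above, so the other 3 are given beside it. Slc6a3, the dopamine transporter of midbrain neurons, had 107, 0 and 100 counts against 0, 3 and 3, Slc18a2 had 119, 96 and 275 against 108, 102 and 103, and Tph2 had 7, 3 and 102 against 13, 7 and 7. Their part in the value of Th was not tested. Npvf and Galp, both peptides of small hypothalamic groups, and Rln3, mainly a hindbrain peptide, were listed at 0 in every library, and Ghrh had 2 counts in all. Peptides that cortical or striatal neurons also make were abundant and did not meet the criteria, but they were not equally steady. Penk, the enkephalin precursor of the striatum, was at 23.8, 423 and 86.3 CPM against 206, 239.8 and 251 CPM, and Tac1, a tachykinin precursor, at 30.2, 154 and 38.0 CPM against 82.8, 94.7 and 113 CPM, both low in WAS replicates 1 and 3 like the striatal markers. Over the alternatives the adjusted p ran from 0.00226 to 1 for Penk and from 4.3e-05 to 1 for Tac1. Cck was at 479.5 ± 35.8 CPM (SD, n = 3) against 565 ± 59.3 CPM (SD, n = 3), a log2 fold change of -0.27 with an unadjusted p of 0.0149 and an adjusted p of 0.585 by edgeR's test. It and Th were the 2 genes of this list at an unadjusted p under 0.05, where 7.24% of all genes tested were. Summed cortex markers (4 genes) were also lower in the WAS group, at 469, 498 and 467 CPM against 569, 610 and 563.5 CPM. Their part in the value of Cck was not tested. Sst was at 299.6 ± 7.12 CPM (SD, n = 3) against 293 ± 16.8 CPM (SD, n = 3). Crh, the releasing hormone of the stress axis, was at 22.1 ± 3.27 CPM (SD, n = 3) against 22.0 ± 1.05 CPM (SD, n = 3). Pomc, the melanocortin precursor, had 19, 34 and 14 counts against 13, 12 and 10, without overlap between the groups and with an unadjusted p of 0.0560 by edgeR's test. Summed pituitary markers (5 genes) had 59, 7 and 3 counts against 3, 3 and 1, with the 59 in WAS replicate 1. Their part in the value of Pomc was not tested.

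Genes that cut and package peptides gave no call by edgeR's quasi-likelihood test. All 14 genes of this list were tested and 0 met the criteria, where 2.49% of all genes tested did. Their median log2 fold change was -0.036. Cpe, the carboxypeptidase that trims peptide precursors, was at 1881 ± 184 CPM (SD, n = 3) against 1656 ± 84.8 CPM (SD, n = 3), and Chgb, a granule protein, at 438 ± 40.0 CPM (SD, n = 3) against 477 ± 27.3 CPM (SD, n = 3). Pcsk2, a prohormone convertase, was at -0.32 (standard error 0.14) with an unadjusted p of 0.0426 by edgeR's test. It was the only gene of the list at an unadjusted p under 0.05, where 7.24% of all genes tested were. Its edgeR adjusted p was 0.681, and it ran from 0.0118 to 0.9997 over the alternatives. Of 20 transcription factors of the hypothalamus, 10 were tested and Lhx9, Nhlh2 and Irx5 met the criteria, each higher in the WAS group, where 1.82% of all genes tested did. At an unadjusted p under 0.05 there were 4, where 7.24% of all genes tested were. The other was Pou3f2, which was lower in the WAS group without overlap, at -0.32 (standard error 0.10). Its unadjusted p was 0.00946 by edgeR's test, and its change is under the fold change asked for. Lhx9, which is expressed in the thalamus as well, had 190, 20 and 133 counts against 37, 2 and 15, with the high values again in WAS replicates 1 and 3, and its log2 fold change of 2.68 was 0.27 without these 2. Its edgeR adjusted p was 0.515, and it ran from 0.00207 without WAS replicate 2 to 0.9997 over the alternatives. With limma on quantile-normalized counts Lhx9 was at 2.75 and lost the call by its p alone (unadjusted p 0.0612). Without WAS replicates 1 and 3 together Nhlh2 likewise went from 1.51 to 0.38. Removing WAS replicate 1 (1.09), WAS replicate 3 (1.48), control replicate 2 (1.03) or control replicate 3 (1.36) took it out of the criteria. With limma it was at 1.72 and lost them by its p alone (unadjusted p 0.0830). Irx5 had 26, 2 and 48 counts against 6, 0 and 7, and its value of 2.52 lost the criteria without WAS replicate 3 (1.68) or control replicate 2 (1.95). With DESeq2 (2.54, unadjusted p 0.0953) and with limma (2.04, unadjusted p 0.166) it lost them by the p alone. Without WAS replicate 2 its adjusted p was 0.0216 by edgeR's test, the lowest of a range up to 0.9997. The summed thalamic markers were high in the same 2 WAS libraries, and their part in these values was not tested.

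Of 8 genes of peptide breakdown and the thyroid axis, 7 were tested and 1 met the criteria, against 2.49% of all genes tested. This was Dio3, which inactivates thyroid hormone, with 42, 14 and 51 counts against 6, 11 and 12 or 1.89 ± 0.51 (SE) on the log2 scale with an edgeR adjusted p of 0.515. That adjusted p ran from 0.00889 without WAS replicate 2 to 0.9997 over the alternatives. Without WAS replicates 1 and 3 Dio3 was at 0.64 and lost the criteria (unadjusted p 0.390 by edgeR's test). Dio2, which activates thyroid hormone, was at 209 ± 13.6 CPM (SD, n = 3) against 245 ± 14.0 CPM (SD, n = 3) without overlap, a log2 fold change of -0.26 that is under the fold change asked for. Trhde, the enzyme that degrades thyrotropin-releasing hormone, was at -0.52 (standard error 0.21) with an unadjusted p of 0.0328. Of 10 genes through which arcuate neurons sense energy state, 9 were tested and 1 met the criteria (2.49% of all genes tested did), Npy2r, with 151, 56 and 186 counts against 67, 51 and 77. Foxo1 and Cpt1c, the most abundant genes of that list, were at 0.0035 ± 0.16 (SE) and 0.15 ± 0.12 (SE) on the log2 scale. For Npy2r, removing WAS replicate 3 (0.70) or control replicate 2 (0.87) took it out of the criteria, as did limma (0.87, unadjusted p 0.102). Its edgeR adjusted p was 0.00374 without WAS replicate 2 and up to 0.9997 over the alternatives. Without WAS replicates 1 and 3 together its log2 fold change turned from 1.03 to -0.11. Of 11 genes named for osmotic or magnocellular responses, 8 were tested and 0 met the criteria, where 2.49% of all genes tested did. At an unadjusted p under 0.05 there were 2, where 7.24% of all genes tested were. These were Aqp4, the water channel of astrocytes, at 0.36 ± 0.13 (SE) on the log2 scale, and Fos, an early response gene, at 0.34 ± 0.14 (SE). The edgeR adjusted p was 0.622 for Aqp4 and 0.670 for Fos. Over the alternatives it ran from 0.0252 to 0.9997 for Aqp4 and from 0.131 to 0.9997 for Fos. Nr4a1, another early response gene, was at -0.020 ± 0.19 (SE).

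The patterns most like those of Oxt and Cartpt, the 2 neuropeptide genes with a mean of at least 20 counts, were sought among 11167 genes. Pearson's r of log2(CPM + 1) over the 6 libraries was highest with Oxt for Cnnm2 (0.982) and Oaz2 (0.976), and with Cartpt for Rbm15b (0.985) and Ncs1 (0.984). With so few libraries 37 genes reached an r over 0.9 with Oxt and 98 with Cartpt. The counts of Cnnm2 ran only from 115 to 175 where those of Oxt ran from 3 to 445, so that likeness in order was not likeness in size.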

How the data were processed

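The authors sequenced QuantSeq 3′ libraries as single-end reads of 75 bases and aligned them with Bowtie2. They deposited whole-number read counts per gene symbol, made with Bedtools from unique and multiple alignments. The submitters' processing notes name mm10. The annotation, and whether counting used the strand, are not given in the sources used here. The deposited counts are not normalized. The 44 repeated symbols were kept apart.

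CPM was the count over the library total. The test was edgeR 4.0.16 (R 4.3.3) by quasi-likelihood with TMM factors, without covariates, on the 15239 genes with a mean log2(quantile-normalized count + 1) of at least 2. Standard errors are the fold change over the square root of F. The study's criteria were read as an unadjusted p under 0.05 with a fold change of 1.5. Samples were grouped by their labels, and p-values measure the spread between 3 mice a group. The genes, lists and tests were chosen with earlier results of these data known. Genes named are the 8 members, the genes most like them, and from the lists the most abundant and those meeting the criteria, though not every gene of this rule is reported, with Drd2, Adora2a, Otp, Sim1, Slc6a3 and a few low or uncalled genes named after their values were seen. Other fits used library totals for scaling, DESeq2 1.42.0, the exact test of edgeR, limma 3.58.1 on quantile-normalized log2 counts, other filters, a replicate block or fewer libraries. The fit was tested on simulated data. Positions came from GENCODE M21 and promoters from RefSeq.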

Additional observations from a re-analysis of the deposited data

How the results depend on the processing

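None of the 6 neuropeptide genes tested met the study's criteria, and this held under the alternatives run except without control replicate 3, where 3 genes met them (0 to 3 over the fits that each left out 1 library), and without WAS replicates 1 and 3 together, a setting chosen after seeing the data, where 1 did (Avp, log2 fold change 1.84, unadjusted p 0.0325). No neuropeptide gene passed an adjusted p of 0.05 in any fit. Over all genes, 380 met the criteria, and between 264 and 825 with each library left out, the highest without WAS replicate 2. The count at an adjusted p of 0.05 was 0 by edgeR's quasi-likelihood test, where 1104 genes had an unadjusted p under 0.05, 22 with DESeq2, 30 with edgeR's exact test, 49 with the replicate block, 1 without WAS replicates 1 and 3 together, and 0 to 491 with each library left out. On quantile-normalized log2 counts with limma the direction turned for Avp (-0.20), Oxt (1.78) and Pmch (-0.021). It also turned for Oxt with the replicate block (0.91) and without control replicate 3 (4.36), for Avp (-1.34) and Gal (-0.17) without WAS replicate 2, for Pmch (-0.53) and Cartpt (-0.29) without WAS replicate 3, for Pmch (-0.00054) and Cartpt (-0.024) without control replicate 1, and for Pmch (-0.73) and Npy2r (-0.11) without WAS replicates 1 and 3 together. The difference in the log2 ratio of Hcrt to Pmch turned from -0.85 to 0.029 without control replicate 1. With each library left out, the ranges were -1.34 to 1.89 for Avp, -1.34 to 4.36 for Oxt, -0.53 to 0.47 for Pmch, -0.17 to 3.18 for Gal, -0.29 to 0.54 for Cartpt and -2.01 to 0.029 for the ratio of Hcrt to Pmch. The cause of each turn was not tested. Same-numbered libraries had deviations that correlated at 0.0662, 0.0846 and 0.0873, all under 0.1, so the numbers were not taken as a pairing, although each was the best match of its library. With the replicate block, 417 genes met the criteria, and Lhx9 and Th had adjusted p of 0.00322 and 0.0303 by edgeR's test. Avp, Hcrt, Pmch, Agrp, Trh and Gal had under 10 counts in some libraries, which limits their precision beside the spread between mice.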
